A study of Mus musculus with 6 samples.

Results

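Expression of 10 dendritic cell transcription factors (Zbtb46, Irf4, Irf8, Batf3, Id2, Klf4, Notch2, Rbpj, Bcl6 and Zeb2) was described in CD11b+ cells of the mouse spleen. They were chosen by name, as factors that specify conventional dendritic cells and their branches. No cut-off on their values was applied, but earlier results of these data were known when they were chosen. Each was found once among the 55335 genes of the count table, and all 10 were among the 14849 genes that passed a filter on low counts. The series holds 6 bulk RNA sequencing libraries of primary spleen cells sorted by flow cytometry for CD11b, from wild-type (WT) mice. In the first group, MI, the mice had a myocardial infarction (n = 3). In the other, MI+RDN, they had both a myocardial infarction and renal denervation, the interruption of the nerves that supply the kidney (n = 3). Infarction is thus shared by both groups, and no library of uninjured mice was used here. The labels give no age, sex, strain or time after surgery, and do not say if cells of several mice were pooled for a replicate, so p-values measure the spread between these libraries only.

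Conventional dendritic cells take up antigen and present it to T cells on MHC class II, and in the spleen they form 2 main branches. The cDC1 branch, specialised in cross-presentation to CD8+ T cells, depends on IRF8, BATF3, ID2 and BCL6. The cDC2 branch, which carries CD11b and primes CD4+ T cells, draws on IRF4, KLF4, NOTCH2 with its nuclear partner RBPJ, and ZEB2. ZBTB46, a BTB zinc finger repressor, is shared by both branches and is largely absent from monocytes, macrophages and neutrophils. Most of the other factors also act elsewhere among spleen leukocytes: IRF8 in monocytes and B cells, IRF4 and BCL6 in lymphocytes, ID2 in NK cells, and NOTCH2, KLF4 and ZEB2 in monocytes. CD11b is carried by neutrophils, monocytes, macrophages and cDC2, and by few cDC1.

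Of the 10 factors, Zbtb46 fell in MI+RDN, by 2.22-fold, and the remaining 9 did not pass the test. Irf8, Batf3 and Zeb2 were lower in every MI+RDN library than in any MI library without passing, and for Irf4, Id2, Klf4, Notch2, Rbpj and Bcl6 the groups overlapped. Passing means an adjusted p under 0.05 in edgeR's quasi-likelihood test with Benjamini-Hochberg adjustment over all tested genes. By that rule 1 of 10 factors was called, against 1.01% of all tested genes. It was lower, as were 0.714% of all genes, and 0 of 10 were higher, against 0.296%. At an unadjusted p under 0.05 the same edgeR test counted 4 of 10 factors, against 19.9% of all genes. Groups that did not overlap were seen for 4 of 10 factors, against 26.2% of genes in either direction. All 4 were lower in MI+RDN (13.7% of genes) and none was higher (12.4%). The median log2 fold change of the 10, MI+RDN over MI, was -0.25, beside 0.0080 over all genes. In bulk RNA, fewer cells of a type and less RNA per cell cannot be told apart.

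**Figure D1:**
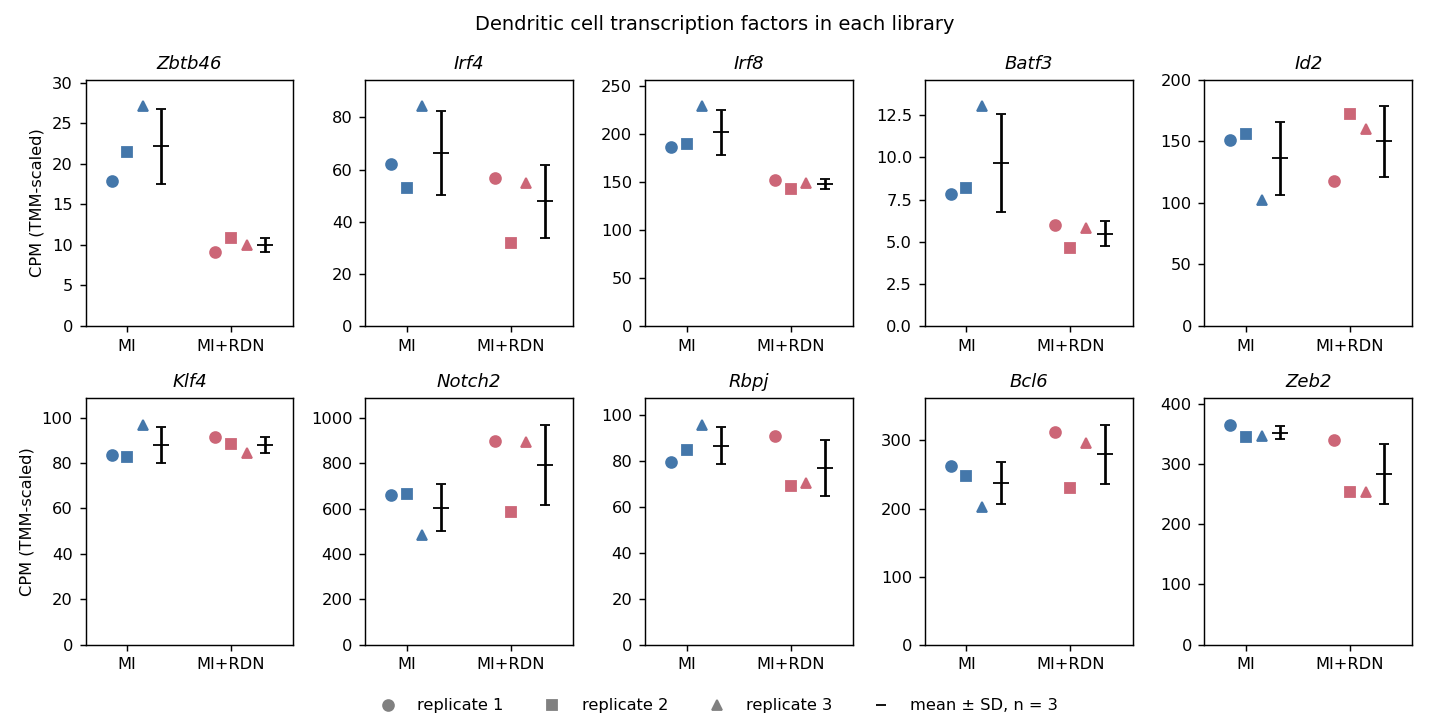
Level of each of the 10 factors in the 6 libraries, in CPM (scaled by TMM factors, axes from 0), with 1 point per library, a symbol per replicate number and bars for mean ± SD (n = 3). Zbtb46 sits at 17.9 to 27.1 CPM in MI and at 9.16 to 10.8 in MI+RDN, Irf8 and Batf3 separate by less, and the points of Klf4, Id2 and Bcl6 overlap.

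Each library held between 21663440 and 28013900 counts. Replicates of a group varied by 20.7% around their gene means (edgeR's common biological coefficient of variation). Levels are given as CPM, counts-per-million values with library sizes scaled by TMM. The least abundant factor, Batf3, had 127 to 349 counts per library and Zbtb46 had 233 to 726, so neither rested on a handful of reads. MI replicate 3 was the highest library for 6 of 10 factors (Zbtb46, Irf4, Irf8, Batf3, Klf4 and Rbpj) and the lowest for 3 (Id2, Notch2 and Bcl6). MI+RDN replicate 2 was the lowest for 5 (Irf4, Irf8, Batf3, Rbpj and Zeb2). The share of all tested genes that were highest or lowest in these libraries was not counted, so it is not known if these counts are particular to the factors.

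Zbtb46 (ENSMUSG00000027583), the factor that separates conventional dendritic cells from other myeloid cells, was measured at 17.9, 21.5 and 27.1 CPM in the MI libraries. In MI+RDN it was at 9.16, 10.8 and 10.015 CPM. The lowest MI library was 1.66 times the highest MI+RDN library, and the MI libraries were the more spread. The group means were 22.2 ± 4.63 and 9.996 ± 0.827 CPM (SD, n = 3), for a log2 fold change of -1.15 ± 0.171 (SE; edgeR, Benjamini-Hochberg adjusted p = 0.0401). Its p ranked 54 among the 14849 tested genes. The call did not hold with any 1 library left out. The edgeR adjusted p was 0.0524, 0.125 and 0.120 without MI replicates 1, 2 and 3, and 0.131, 0.0584 and 0.0679 without MI+RDN replicates 1, 2 and 3. The log2 fold change stayed between -1.28 and -0.98 in those 6 fits, which have fewer samples. With no filter on low counts the adjusted p was 0.0793.

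In the cDC1 branch, Irf8, which commits progenitors to cDC1 and also acts in monocytes and B cells, stood at 186, 189 and 229 CPM in MI. It stood at 152, 142 and 149 CPM in MI+RDN. The groups did not overlap, and the spread within MI+RDN was small, at 148 ± 4.87 CPM against 201 ± 23.8 in MI (SD, n = 3). This gave a log2 fold change of -0.45 ± 0.104 (SE), short of the threshold (edgeR, Benjamini-Hochberg adjusted p = 0.0783). It passed with DESeq2's Wald test (adjusted p = 0.00581) and without scaling factors (edgeR adjusted p = 0.0398). Batf3, a basic leucine zipper protein that maintains Irf8 expression in cDC1, was scarcer, at 7.84, 8.16 and 13.041 CPM in MI. In MI+RDN it was at 6.0045, 4.64 and 5.80 CPM. Its groups did not overlap either, and MI replicate 3 stood well above the other libraries. Its log2 fold change was -0.82 ± 0.239 (SE; edgeR adjusted p = 0.123), or -0.55 without MI replicate 3. DESeq2's Wald test called Batf3 as well (adjusted p = 0.0276).

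Id2, which blocks E proteins and so favours cDC1 over plasmacytoid dendritic cells, stood at 151, 156 and 102 CPM in MI. In MI+RDN it stood at 118, 172 and 160 CPM. MI replicate 3 was the lowest library and MI+RDN replicate 2 the highest, with the others between them. Id2 had a log2 fold change of 0.14 ± 0.194 (SE; edgeR adjusted p = 0.732), which ran from -0.033 without MI replicate 3, where its sign turned, and 0.013 without MI+RDN replicate 2 to 0.29 without MI+RDN replicate 1. Bcl6, a repressor needed for cDC1 and for germinal centre B cells, was measured at 263, 247 and 203 CPM in MI. It was at 313, 231 and 296 CPM in MI+RDN, where replicate 2 fell within the MI range. Its log2 fold change was 0.24 ± 0.147 (SE; edgeR adjusted p = 0.411), or 0.13 with MI replicate 3 left out and 0.15 with MI+RDN replicate 1 left out.

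Among the factors of the cDC2 branch, Irf4, which supports cDC2 migration and antigen presentation, stood at 62.2, 52.9 and 84.3 CPM in MI. In MI+RDN it stood at 56.8, 31.7 and 54.8 CPM. The groups overlapped, since 2 of the MI+RDN libraries lay above MI replicate 2. Irf4 had a log2 fold change of -0.48 ± 0.246 (SE; edgeR adjusted p = 0.325), and it was -0.27 when either MI replicate 3 or MI+RDN replicate 2 was left out. Klf4, needed for a cDC2 subset and for Ly6C-high monocytes, gave 83.6, 82.7 and 96.9 CPM in MI. It gave 91.3, 88.2 and 84.4 CPM in MI+RDN. The group means were 87.7 ± 7.94 and 88.0 ± 3.49 CPM (SD, n = 3). The log2 fold change of 0.0038 ± 0.0935 (SE; edgeR adjusted p = 0.987) changed sign in 7 of 15 alternatives, upper-quartile scaling and no scaling among them.

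Notch2, the receptor that splenic CD4+ cDC2 need, was measured at 662, 666 and 484 CPM in MI. In MI+RDN it was at 898, 586 and 893 CPM. MI+RDN replicate 2 lay inside the MI range while the other MI+RDN libraries lay above it. Notch2 had a log2 fold change of 0.39 ± 0.200 (SE; edgeR adjusted p = 0.321), which was 0.25 (adjusted p = 0.625) when MI replicate 3 was left out and 0.55 (0.116) when MI+RDN replicate 2 was. Rbpj, the DNA-binding protein through which Notch receptors act, stood at 79.8, 84.8 and 96.0 CPM in MI. It stood at 91.1, 69.3 and 70.4 CPM in MI+RDN, so that 1 of 3 libraries lay within the MI range and the other two below it. Its log2 fold change was -0.18 ± 0.131 (SE; edgeR adjusted p = 0.490), or -0.098 with MI replicate 3 left out and -0.31 with MI+RDN replicate 1 left out. Zeb2, a repressor of Id2 that favours cDC2 and plasmacytoid cells, was at 365, 345 and 346 CPM in MI. In MI+RDN it was at 340, 254 and 254 CPM. The groups were apart by a ratio of 1.01 only, between MI replicate 2 and MI+RDN replicate 1. Zeb2 had a log2 fold change of -0.32 ± 0.132 (SE; edgeR adjusted p = 0.236). An antisense gene, Zeb2os, overlaps exons of Zeb2 and had 159 to 267 counts per library, and Gm42820 overlaps exons of Notch2 with 41 to 72. The strand setting of the counting is not given in the sources used here, so reads of such pairs may not be separated.

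**Figure D2:**
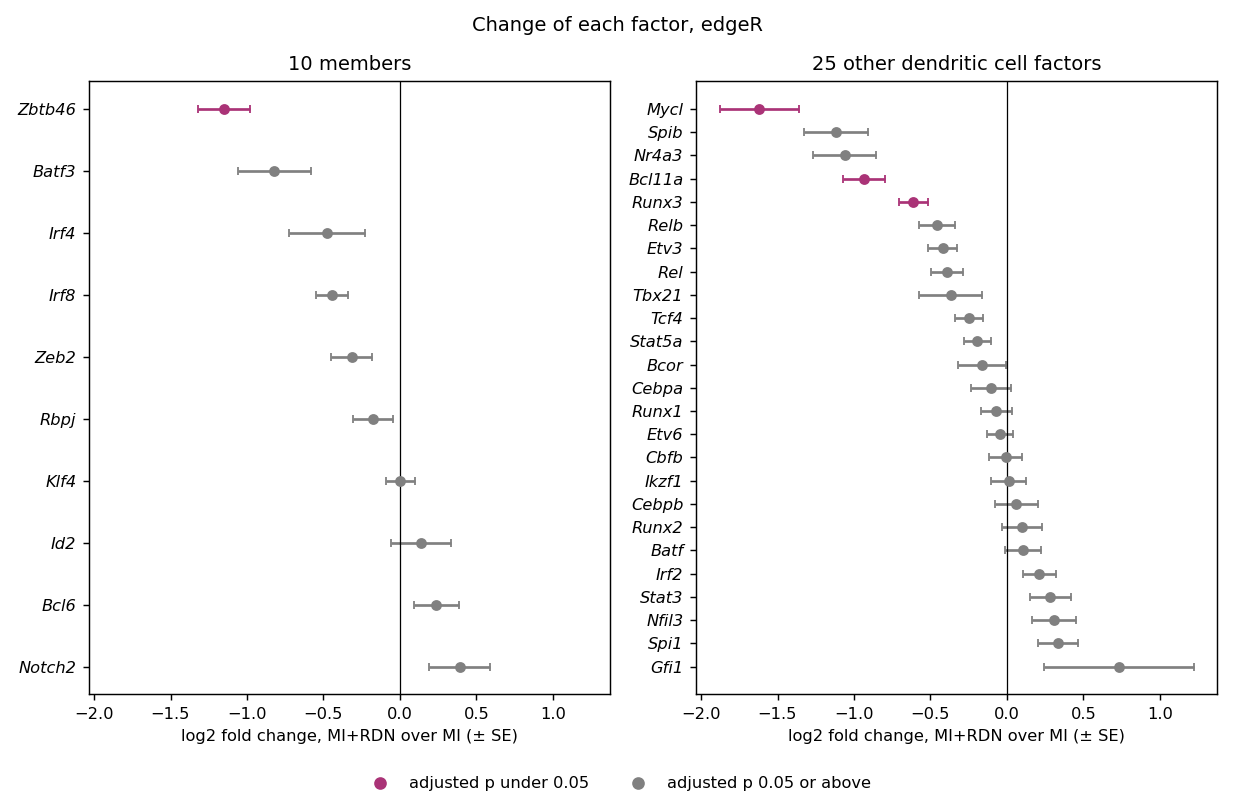
Log2 fold change, MI+RDN over MI, of the 10 factors (left) and of 25 other factors known in dendritic cells (right), each with its standard error from edgeR, and purple where the adjusted p is under 0.05. Zbtb46 at -1.15 is purple on the left, and Mycl at -1.62, Bcl11a at -0.93 and Runx3 at -0.61 on the right.

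Per kilobase of exon, Notch2 and Id2 were the most abundant of the 10, at 56.0 CPM per kilobase each in MI and 73.5 and 61.5 in MI+RDN. Bcl6 followed at 35.5 and 41.8, Klf4 at 28.8 and 28.9, and Irf8 at 28.5 and 20.9 CPM per kilobase, in MI and MI+RDN. Zeb2 (17.7 and 14.2), Irf4 (13.6 and 9.74), Rbpj (6.81 and 6.03) and Batf3 (6.06 and 3.43) lay below them. Zbtb46 was the lowest, at 2.61 and 1.18 CPM per kilobase, which put it at percentile 32.8 of all tested genes on this scale. Neighbours in this order overlapped over the 6 libraries, except Irf8 (20.2 to 32.4) and Zeb2 (12.7 to 18.3). The single factor called in the main fit was the one with the lowest level per length, though Batf3 was lower in CPM. A link between level and change was not tested.

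The 250 bases before annotated starts were read for all 10 factors, and 4 windows are shown, from factors whose groups did not overlap. Sequences and starts are RefSeq's on GRCm38.p6, an older build than the GRCm39 named in the submitters' processing notes. There were 16 windows in all. For Batf3 and Irf8 every window is printed. Of the 4 Zeb2 windows the one printed, start 4, was chosen because it holds motif matches, and starts 1 to 3 hold none. Batf3 and start 1 of Irf8 lie in CpG-rich sequence, with 27 and 29 CpG and a GC content of 76.0% and 67.2%, against medians of 6 CpG and 52.4% over 32851 promoters. Capitals mark matches, on either strand, to any of 6 short motifs described after the sequences.
Batf3, chr1:191098164-191098413, plus strand: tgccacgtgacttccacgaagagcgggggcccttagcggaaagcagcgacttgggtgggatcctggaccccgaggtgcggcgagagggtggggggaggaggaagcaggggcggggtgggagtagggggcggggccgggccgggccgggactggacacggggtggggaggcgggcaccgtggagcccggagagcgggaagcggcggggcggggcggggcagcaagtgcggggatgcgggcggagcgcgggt
Irf8, start 1, chr8:120736108-120736357, plus strand: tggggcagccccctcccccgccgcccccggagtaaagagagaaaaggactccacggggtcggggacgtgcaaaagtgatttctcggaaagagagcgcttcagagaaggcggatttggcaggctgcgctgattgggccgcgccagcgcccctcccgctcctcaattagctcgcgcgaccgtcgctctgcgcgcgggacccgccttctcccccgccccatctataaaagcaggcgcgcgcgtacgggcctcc
Irf8, start 2, chr8:120738389-120738638, plus strand: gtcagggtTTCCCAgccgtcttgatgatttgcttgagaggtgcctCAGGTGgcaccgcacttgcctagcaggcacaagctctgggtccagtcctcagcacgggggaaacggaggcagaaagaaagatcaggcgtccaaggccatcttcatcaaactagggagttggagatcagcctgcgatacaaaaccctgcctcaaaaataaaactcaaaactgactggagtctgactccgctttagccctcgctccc
Zeb2, start 4, chr2:45110278-45110527, minus strand: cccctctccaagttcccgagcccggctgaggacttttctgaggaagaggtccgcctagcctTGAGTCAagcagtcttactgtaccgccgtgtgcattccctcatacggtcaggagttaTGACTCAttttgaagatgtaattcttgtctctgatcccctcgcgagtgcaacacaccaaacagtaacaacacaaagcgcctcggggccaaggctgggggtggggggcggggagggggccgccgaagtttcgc

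The motifs were searched on both strands, and none of them contains another. The E-box bound by ZEB2 (CAGGTG) was found in 3 of 16 windows, of Irf8, Rbpj and Zbtb46, and in 17.2% of all promoters. Start 2 of Irf8 held it 205 bases before the start and a core site of RBPJ (TGGGAA) 242 bases before it. That RBPJ core was found in 3 of 16 windows, of Irf8 and Rbpj, and in 21.6% of promoters. The AP-1 site (TGANTCA), the kind of site that BATF3 binds with JUN proteins, occurred in 2 of 16 windows, of Zbtb46 and Zeb2, and in 6.75% of promoters. In start 4 of Zeb2 it occurred 189 and 132 bases before the start. No window of the 10 factors held the PU.1 site (GAGGAAGT, 2.44% of promoters), the IRF site (GAAANNGAA, 7.13%) or the KLF site (CCACACCC, 3.20%). Matches describe the letters in these windows and no binding was measured. The Zbtb46 window is not printed because its RefSeq start is used by 1 of 5 GENCODE transcripts, while the other 4 start 34991 to 35038 bases farther upstream.

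Other factors known in dendritic cells gave 3 lower and 0 higher of 25 tested, with a median log2 fold change of -0.10. Bcl11a, needed for plasmacytoid dendritic cells and B cells, fell from 63.5 ± 9.76 to 33.3 ± 3.904 CPM (edgeR adjusted p = 0.0401). Runx3, which acts in cDC2 and in lymphocytes, fell from 56.3 ± 2.72 to 36.8 ± 2.85 CPM (adjusted p = 0.0401). Mycl, a MYC family member that sustains dendritic cell growth, gave the largest fold of the list, from 16.7 ± 5.16 to 5.44 ± 1.19 CPM (log2 fold change -1.62, adjusted p = 0.0433). In each of these genes the groups did not overlap. Spi1, the gene of PU.1, which all myeloid cells share, had means of 612 ± 57.6 (MI) and 772 ± 93.1 CPM (MI+RDN) and was not called (adjusted p = 0.212). The count of this list was 2 (Bcl11a and Runx3) without MI+RDN replicate 2 and 0 without any other 1 library. It was also 0 with no filter, and 8 with DESeq2's Wald test.

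Beyond Notch2 and Rbpj, 20 of 24 genes of the Notch pathway were tested, and 1 was lower, 0 higher, with a median log2 fold change of 0.024. The gene that fell was Dtx1, an E3 ligase and Notch target also used as a cDC2 marker. It was at 34.8, 34.1 and 41.5 CPM in MI and at 12.5, 17.7 and 21.5 CPM in MI+RDN (edgeR adjusted p = 0.0496). Dtx1 passed narrowly, and it did not pass without any 1 library, with no filter, or with upper-quartile or DESeq2 size factors. Mfng, a glycosyltransferase that modifies Notch receptors, stood at 30.7 ± 4.55 and 19.2 ± 0.707 CPM (edgeR adjusted p = 0.0548).

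None of the genes tested in the factors' own families passed in the main edgeR fit, of 6 other IRF, 11 other KLF, 13 other BTB zinc finger, 6 E and Id protein and 8 AP-1 genes. Their counts at an unadjusted p under 0.05 were 0, 4, 3, 2 and 0, in that order, and DESeq2's Wald test called 0, 3, 3, 1 and 0. Median log2 fold changes were 0.18, 0.21, 0.048, -0.012 and 0.16. Klf5, with 8.33 ± 1.83 (MI) and 16.4 ± 4.02 CPM (MI+RDN), had the lowest p of the KLF list (edgeR adjusted p = 0.0788), and Klf13 followed at 372 ± 85.6 and 588 ± 50.8 CPM (0.103). Zbtb20, a BTB zinc finger factor with roles in B cells, stood at 24.4 ± 0.211 and 14.4 ± 2.67 CPM (edgeR adjusted p = 0.0556), and Zbtb10 at 3.11 ± 0.197 and 1.44 ± 0.469 (0.104). Tcf12, an E protein that ID2 can bind, stood at 33.6 ± 2.59 and 24.98 ± 1.16 CPM (edgeR adjusted p = 0.0793), and Tcf4, the E protein of plasmacytoid cells, at 74.3 ± 2.48 and 62.6 ± 5.01 (0.185). Irf2 and Irf5 led the IRF list at adjusted p of 0.306 and 0.323, and Fosb and Jund the AP-1 list at 0.257 and 0.383 (edgeR). In other edgeR fits, Zbtb20 passed at a mean of at least 5 CPM, without scaling factors and with robust edgeR. Tcf12 passed without scaling factors.

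**Figure D3:**
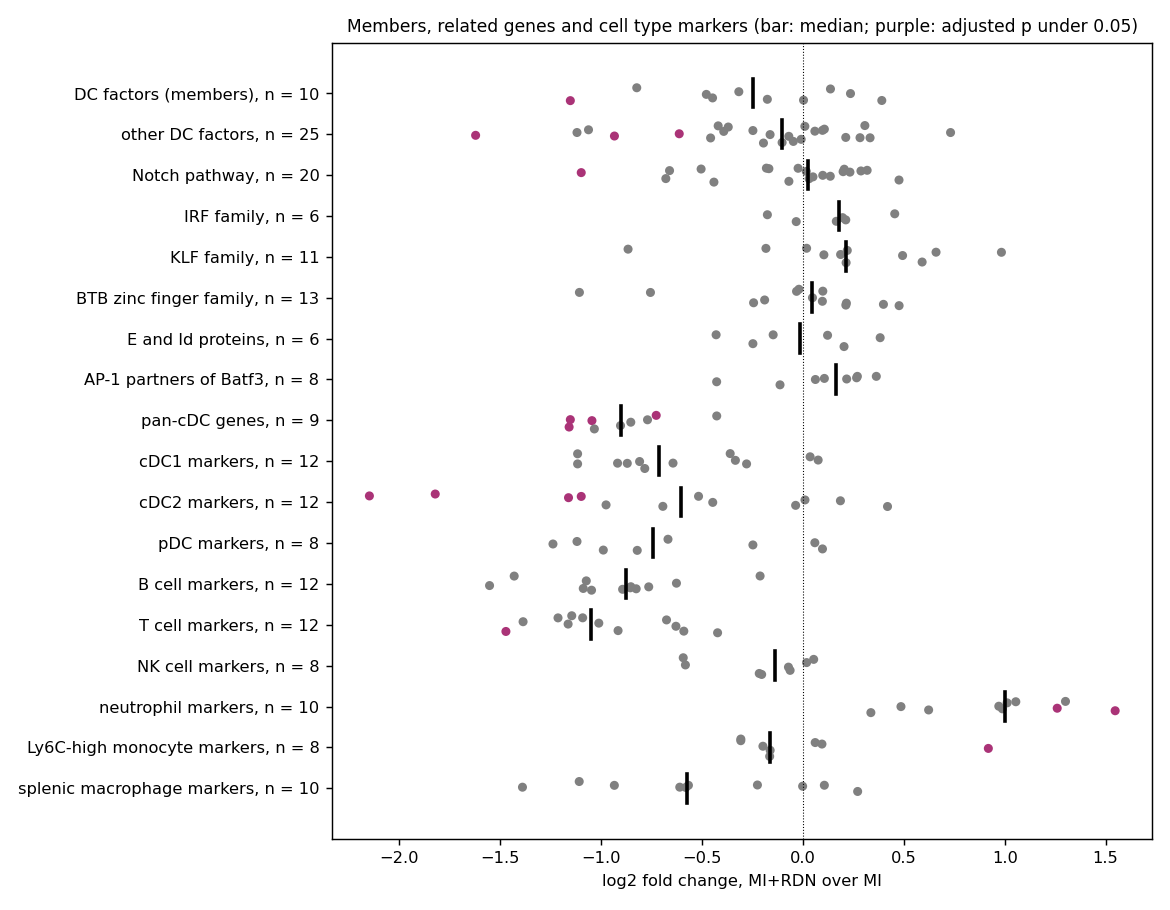
Log2 fold change, MI+RDN over MI, of every tested gene of the 10 factors, of 7 lists of related factors and of 10 lists of cell type markers (1 point a gene, bar at the median, purple for an edgeR adjusted p under 0.05). Medians lie at -0.90 for the pan-cDC genes, -0.71 for cDC1, -0.60 for cDC2, -0.87 for B cell, -1.05 for T cell and 1.0 for neutrophil markers, and the 10 factors at -0.25.

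Markers of the cells that use these factors were counted in the same fit. Genes shared by conventional dendritic cells summed to 5411, 6405 and 8200 CPM in MI and to 3074, 3314 and 3590 CPM in MI+RDN. Most of these sums came from Cd74 (mean 3224 CPM in MI and 1577 in MI+RDN), H2-Aa (1461 and 658) and H2-Ab1 (1105 and 536). Of the 9 genes in this list 4 fell and 0 rose, against 0.714% and 0.296% of all tested genes. In all 9 the groups did not overlap and MI+RDN was lower (13.7% of all genes). The same held for 10 of 12 B cell and 10 of 12 T cell markers. The 4 genes called were Ciita, which switches on MHC class II genes (183 ± 24.2 to 82.2 ± 6.35 CPM, edgeR adjusted p = 0.0133), the class II chains H2-Ab1 (0.0425) and H2-Aa (0.0462), and Kit (0.0462), the stem cell factor receptor of progenitors. Flt3, the cytokine receptor on which dendritic cells depend, was at 97.5, 109 and 147 CPM in MI and 67.4, 61.2 and 67.3 in MI+RDN, just short of the threshold (adjusted p = 0.0511). B cells also express Ciita and the class II chains. The count of this list was 1 (Ciita) when MI replicate 1 or MI+RDN replicate 2 or 3 was left out and 0 when MI replicate 2 or 3 or MI+RDN replicate 1 was, and DESeq2's Wald test called all 9.

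Of the markers of cDC2, 6 of 12 were at an unadjusted p under 0.05 in edgeR, and 3 of 12 had a positive log2 fold change. Those 3 were Clec4a2 (76.9 ± 5.76 in MI and 103 ± 24.5 CPM in MI+RDN, edgeR adjusted p = 0.210), Clec12a (214 ± 21.4 and 243 ± 56.2) and Ltb (101 ± 4.30 and 101 ± 17.6). Markers past the threshold were 4 lower and 0 higher of 12. The 4 that passed were Cd4 (38.1 ± 8.49 to 10.8 ± 0.923 CPM, edgeR adjusted p = 0.0119), the lectins Cd209a (116 ± 44.1 to 26.1 ± 8.83, 0.0401) and Clec10a (41.2 ± 11.6 to 18.4 ± 1.02, 0.0439), and Dtx1. Cd4 is also a T cell gene. Sirpa, a cDC2 marker that monocytes and neutrophils share, stood at 1047 ± 53.6 and 1022 ± 33.6 CPM. Esam, which marks the Notch2-dependent cDC2, was low, at 2.10 ± 1.09 and 1.30 ± 0.621 CPM. With 1 library left out the count was 1 (Cd4) or 0, the latter without MI replicate 3 or MI+RDN replicate 1. The summed level of the list was 1602 to 1799 CPM in MI and 1527 to 1594 in MI+RDN, close together since Sirpa makes up most of it.

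Of the markers of cDC1, the cells of Batf3 and Irf8, 0 of 12 passed in the main edgeR fit, with 8 at an unadjusted p under 0.05. DESeq2's Wald test called 3, and edgeR without scaling factors called 2 (Wdfy4 and Tlr11). Xcr1, the chemokine receptor of cDC1, was at 2.94, 2.53 and 3.74 CPM in MI and at 1.001, 1.24 and 2.02 in MI+RDN (edgeR adjusted p = 0.127). Clec9a, their receptor for dead cells, was at 6.39, 5.95 and 11.4 CPM in MI and at 5.35, 3.65 and 4.56 in MI+RDN, and like Batf3 it was highest in MI replicate 3. The lowest p of the list belonged to Tlr11 (9.53 ± 0.993 and 5.06 ± 1.04 CPM, edgeR adjusted p = 0.0671) and Gcsam (3.50 ± 0.620 and 1.92 ± 0.207, 0.112). The list summed to 592 to 611 CPM in MI and 500 to 544 in MI+RDN, but Wdfy4 (307 ± 20.2 and 253 ± 17.2 CPM) and Naaa (203 ± 10.3 and 214 ± 20.4) made up most of these sums. The median log2 fold change over the 12 genes was -0.71. Of the plasmacytoid markers 8 of 10 were tested and 0 passed in the main edgeR fit, with 5 at an unadjusted p under 0.05 and 1, Spib, called by DESeq2's Wald test. Their sums were 265 to 289 CPM in MI and 205 to 260 in MI+RDN. Spib, shared with B cells, stood at 61.3 ± 13.5 and 28.3 ± 7.25 CPM (edgeR adjusted p = 0.0539), Ccr9 at 2.35 ± 0.792 and 1.19 ± 0.106 (0.146). In other edgeR fits, Spib passed at a mean of at least 5 CPM, without scaling factors and with the replicate number as a block.

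Markers of other cells in or near the gate were measured beside the 10 factors. B cell markers summed to 764, 667 and 962 CPM in MI and 369, 365 and 572 in MI+RDN. In the main edgeR fit 0 of 12 passed and 11 were at an unadjusted p under 0.05, led by Fcer2a at an adjusted p of 0.0523 and Ebf1 at 0.0539. DESeq2's Wald test called 10. Other edgeR fits called 3 at a mean of at least 5 CPM, 7 without scaling factors and 7 with the replicate number as a block. Robust edgeR called 3, and the fit without MI+RDN replicate 3 called 2. T cell markers summed to 131, 99.8 and 105 CPM and 53.0, 64.3 and 74.0 CPM (1 of 12 lower, Cd3d, edgeR adjusted p = 0.0442; Lck followed at 0.0604). Neutrophil markers went the other way, at 19220, 20200 and 13190 CPM in MI and 30260, 36810 and 25890 in MI+RDN, with 2 of 10 higher, Retnlg (edgeR adjusted p = 0.0316) and Ly6g (0.0425). In the monocyte list, summing to 7310 to 8744 and 5875 to 9004 CPM, 1 of 8 passed, Ly6c2, which was higher (edgeR adjusted p = 0.0364). Fn1 followed (0.373) and was lower in MI+RDN, at 1944 ± 369 and 1572 ± 202 CPM. The log2 fold change was negative for 5 of 8, with a median of -0.16. Sums of NK cell markers (170 to 183 and 135 to 201 CPM) and splenic macrophage markers (1266 to 1430 and 1034 to 1432) overlapped. In the main edgeR fit 0 of 8 and 0 of 10 passed, 2 and 3 were at an unadjusted p under 0.05, and DESeq2's Wald test called 0 and 2. Median log2 fold changes were -0.14 for the NK and -0.57 for the macrophage list, with 6 of 8 and 8 of 10 negative. In 4 of 10 macrophage markers the groups were apart and lower in MI+RDN. Txk (edgeR adjusted p = 0.137) and Klra8 (0.173) led the NK list, both lower in MI+RDN. Mrc1 (70.2 ± 19.6 in MI and 26.85 ± 9.28 CPM in MI+RDN, 0.0571) and Spic (33.6 ± 9.11 and 17.6 ± 5.12, 0.108) led the macrophage list. In other edgeR fits, Mrc1 passed at a mean of at least 5 CPM, without scaling factors and with the replicate number as a block. With 1 library left out, the calls of Cd3d and Ly6c2 were lost in every case, and those of the neutrophil list in every case but the one without MI+RDN replicate 2. No marker of any of these lists was at 0 in all 6 libraries. Itgam, the gene of the sort marker CD11b, had means of 1133 ± 150 (MI) and 1598 ± 95.2 CPM (MI+RDN; edgeR adjusted p = 0.109). The part of these differences in the result for each factor was not tested.

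**Figure D4:**
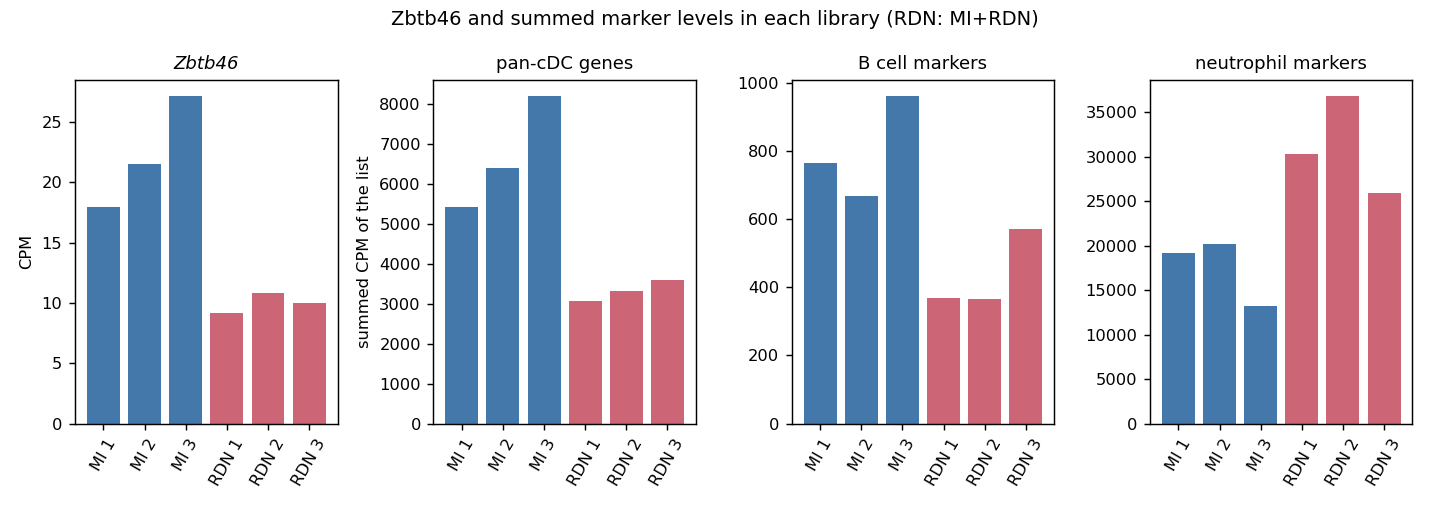
Zbtb46 in CPM and the summed CPM of the pan-cDC genes, B cell markers and neutrophil markers in each library (bars from 0, MI blue, MI+RDN red). MI replicate 3 has the highest bar for Zbtb46, the pan-cDC genes and the B cell markers and the lowest for the neutrophil markers, at 27.1, 8200, 962 and 13190 CPM. Cd74, H2-Aa and H2-Ab1 make up most of the pan-cDC sum.

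Ratios between factors compare them within a library, where the scaling of library size drops out. The log2 ratio of Irf4 to Irf8, the cDC2 against the cDC1 factor, averaged -1.62 ± 0.202 (MI) and -1.67 ± 0.423 (MI+RDN; SD, n = 3). The difference of -0.055 was smaller than either spread (exact two-sided permutation test, p = 0.9), and its sign turned without MI replicate 3 (0.035) or MI+RDN replicate 2 (0.19). Zbtb46 to Flt3, both genes of conventional dendritic cells, gave log2 ratios of -2.40 ± 0.0556 and -2.70 ± 0.191, apart by -0.30 with no overlap between groups. Against Spi1 the Zbtb46 ratio averaged -4.80 ± 0.404 and -6.26 ± 0.294, apart by -1.46, again with no overlap. Both gave p = 0.1 in the exact two-sided permutation test (0.15 after Benjamini-Hochberg adjustment over the 3 ratios), the smallest p that 3 libraries against 3 allow. The Zbtb46 difference was thus larger beside Spi1 than beside Flt3, and the difference between these ratios was not tested.

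Genes whose log2 CPM followed Zbtb46 most closely over the 6 libraries were found among 9325 protein-coding genes with a mean of at least 5 CPM. Predicted genes, genes with clone names and antigen receptor segments were left out. These were Ehf, an ETS factor (Pearson r = 0.999), Hap1 (0.999), Dhx57 (0.999), Zfp146 (0.998), Inppl1 (0.997) and H2-Eb1, a class II beta chain (0.997). All the points share the difference between groups, so the likeness is a description of these 6 libraries. Ehf stood at 7.75, 9.88 and 13.8 CPM in MI and at 3.12, 4.17 and 3.52 in MI+RDN, with the same order of libraries as Zbtb46. Ehf, Hap1 and H2-Eb1 fell (edgeR adjusted p = 0.0433, 0.0401 and 0.0401), while Dhx57 (0.0545), Zfp146 (0.109) and Inppl1 (0.0523) did not pass. Of the other factors, Irf8 (r = 0.959) and Batf3 (0.899) were the most like Zbtb46, Zeb2 (0.623), Irf4 (0.595), Rbpj (0.546) and Klf4 (0.167) less so, and Id2 (-0.368), Bcl6 (-0.743) and Notch2 (-0.756) ran against it. Flt3 had an r of 0.971 and Itgam of -0.901.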

How the data were processed

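The authors deposited 1 table of whole-number counts per Ensembl gene for the 6 libraries, with no normalization. Strand-specific TruSeq libraries from column-purified RNA were read on a NovaSeq instrument, per the labels' protocols. FastQC 0.11.2, STAR and GRCm39 are named in the submitters' processing notes. How reads were counted (tool, annotation, strand, multimapping) is not given in the sources used here. Symbols were matched by Ensembl ID to GENCODE on GRCm38 (55154 of 55335), which also gave exon lengths.

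The counts were fitted with edgeR 4.0.16 in R 4.3.3 (filterByExpr defaults, TMM, quasi-likelihood F test, Benjamini-Hochberg over 14849 genes, threshold 0.05), all 6 libraries and no covariates. The SE was derived from each log2 fold change and its F statistic. Ratios were taken on log2 CPM (prior count 2). Alternatives used limma 3.58.1 and DESeq2 1.42.0, among others, and those for the gene lists were added after seeing the data. The procedure was tested on simulated data. Figures used Python 3.11.15 and matplotlib 3.10.9.

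The members and all gene lists were chosen with earlier results of these data known. Named genes are the 10 factors and each list's passing members or, where fewer than 2 passed, its members of lowest p up to 2. Itgam was named too, as were the 6 genes most correlated with Zbtb46 among the 9325 compared. Flt3, Cd74, Spi1, Sirpa, Esam, Clec4a2, Clec12a, Ltb, Xcr1, Clec9a, Wdfy4 and Naaa were added after their values were seen.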

Additional observations from a re-analysis of the deposited data

How the results depend on the processing

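The number of genes past the threshold, 150, was 1165 with DESeq2's Wald test, 290 at a mean of at least 5 CPM, 21 with no filter, 475 without scaling factors, 277 with robust edgeR and 87 with the replicate number as a block. Without scaling factors 62 of the 475 were higher and 413 lower, and the median log2 fold change of all genes was -0.13. With 1 library left out it was 0 to 67, with 0 (edgeR) when MI replicate 3 or MI+RDN replicate 1 was left out, where 2084 and 2323 genes had an unadjusted p under 0.05. These fits have fewer samples. Of the 10 factors, 3 passed with DESeq2's Wald test (Zbtb46, Irf8 and Batf3), 2 without scaling factors (Zbtb46 and Irf8), 0 with no filter (edgeR, 4 at an unadjusted p under 0.05), and 0 to 0 with 1 library left out (edgeR, 3 to 5 at an unadjusted p under 0.05). With the replicate block 1 passed, Zbtb46 (edgeR adjusted p = 0.0464). Deviations of same-numbered libraries correlated at 0.0179, -0.0652 and 0.0640, and those of differently numbered libraries at -0.106 to 0.0943. Pairing was not tested, and the labels do not say if the numbers mark pairs. Klf4 reversed at a mean of at least 5 CPM (-0.027), with upper-quartile factors (-0.027), without scaling factors (-0.14), and without MI replicate 1 (-0.029), MI replicate 2 (-0.035), MI+RDN replicate 1 (-0.020) or MI+RDN replicate 2 (-0.016). Id2 reversed without MI replicate 3 (-0.033). With 1 library left out Klf4 ran from -0.035 to 0.081 and Id2 from -0.033 to 0.29. The log2 ratio of Irf4 to Irf8 ran from -0.18 to 0.19 with 1 library left out, reversed without MI replicate 3 (0.035) or MI+RDN replicate 2 (0.19). Without scaling factors Notch2 was 0.25, Bcl6 0.099, Id2 0.0094 and Rbpj -0.32. The other 8 factors kept their direction in all 15 alternatives, and the cause of these moves was not tested. The lowest count of any factor in a library was 127 (Batf3). The number of libraries sets the smallest p of the ratios.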
